A study of Drosophila melanogaster with 7 samples.

Results

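The binding sites of dCTCF, the Drosophila homolog of the vertebrate insulator protein CTCF, were compared between interphase and mitosis. The cells were Kc167, a line derived from Drosophila melanogaster embryos and grown in serum-free medium. The members are the peaks of the 2 chromatin immunoprecipitation sequencing (ChIP-seq) lists for dCTCF that lie on 2L, 2R, 3L, 3R, 4 and X, here called the main arms. They number 5119 of the 40204 peaks in the 7 lists of the study, with 2882 in interphase and 2237 in mitosis. The other 1080 interphase and 3793 mitotic dCTCF peaks lay on heterochromatic or unplaced sequences and were kept for an alternative only. Formaldehyde-fixed cells were stained with propidium iodide and with an antibody against histone H3 phosphorylated at serine 10, a mark of condensed mitotic chromosomes, and sorted into the 2 groups, interphase and mitosis. The labels give no drug, genotype or transgene for either group, and no count or purity of the sorted cells. Both precipitations used dCTCF antibodies mixed from guinea pig and rat. The histone antibody was on the chromatin before precipitation, and its part in the mitotic list was not tested. CP190 and BEAF were profiled in the same 2 phases and Su(Hw), the gypsy insulator protein, in mitosis.

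dCTCF is a zinc-finger protein that binds DNA directly. Insulator proteins of this kind mark boundaries between regulatory domains and help bring distant sites together. CP190 does not select most of its sites itself but is recruited by DNA-binding insulator proteins, dCTCF among them, and BEAF, the boundary element-associated factor, is known for binding near the starts of active genes. When cells enter mitosis, chromosomes condense, transcription largely stops and many DNA-binding proteins leave chromatin, so the sites that a protein keeps in mitosis are of interest as possible memory marks of the interphase pattern.

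Each phase was 1 library. No difference between phases therefore has a replicate check, no p-value is given, and intervals are 95% intervals that cover the counting of sites only. Shares have Wilson intervals, medians have order-statistic intervals and differences of shares have Newcombe intervals. The lists hold no read numbers, so their depth is unknown, and where a peak is missing it was not called at the depth of that library. Each peak has a score from the authors, on a scale that the sources used here do not give. Scores ranked peaks within a list only, since they depend on the depth of the library. Positions are as in the authors' lists, written 1-based, with sequence names of Drosophila genome release 5. Peaks were not assigned to genes.

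Mitotic dCTCF peaks were wider than interphase peaks, and fewer than 1 in 2 peaks of either list had a counterpart in the other. An interphase peak was called retained, and a mitotic peak shared, when the 2 overlapped by at least 1 bp. Of the interphase peaks 973 were retained (33.8%, 32.1 to 35.5%) and 1909 were called in interphase alone. Of the mitotic peaks 906 were shared (40.5%, 38.5 to 42.5%) and 1331 were called in mitosis alone. The edge of this rule held few peaks: 7 of the 979 overlapping pairs overlapped by under 50 bp, and 6 mitosis-only peaks lay less than 50 bp from an interphase peak. Allowing a gap of 1000 bp in place of an overlap matched 37.5% (35.8 to 39.3%) of interphase and 45.2% (43.2 to 47.3%) of mitotic peaks. Most peaks without a counterpart thus had none within that distance. When mitotic peaks were limited to 758 bp, the upper quartile of interphase widths, 591 were left and 6.07% of interphase peaks were retained, a share lowered by the shorter list itself.

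The median width on the main arms was 614 bp (604 to 622) in interphase and 896 bp (885 to 909) in mitosis. Retained interphase peaks were wider than those called in interphase alone, with medians of 715 bp (702 to 730) and 568 bp (557 to 579). In mitosis the shared peaks had a median of 950 bp (933 to 974) and the mitosis-only peaks one of 862 bp (846 to 878). Every class of mitotic peak was thus wider at the median than every class of interphase peak. The 2 lists also differed at both ends of the range. In interphase 25.5% of peaks were narrower than 500 bp, against 3 of the 2237 mitotic peaks, and the narrowest mitosis-only peak was 525 bp wide. Peaks wider than 2000 bp made up 0.659% of the interphase and 9.21% of the mitotic list. As a result the mitotic list, although shorter, covered 2844 kb of the main arms and the interphase list 1940 kb. Widths depend on settings of the peak caller that the sources used here do not give, and their part in this difference was not tested.

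**Figure D1:**
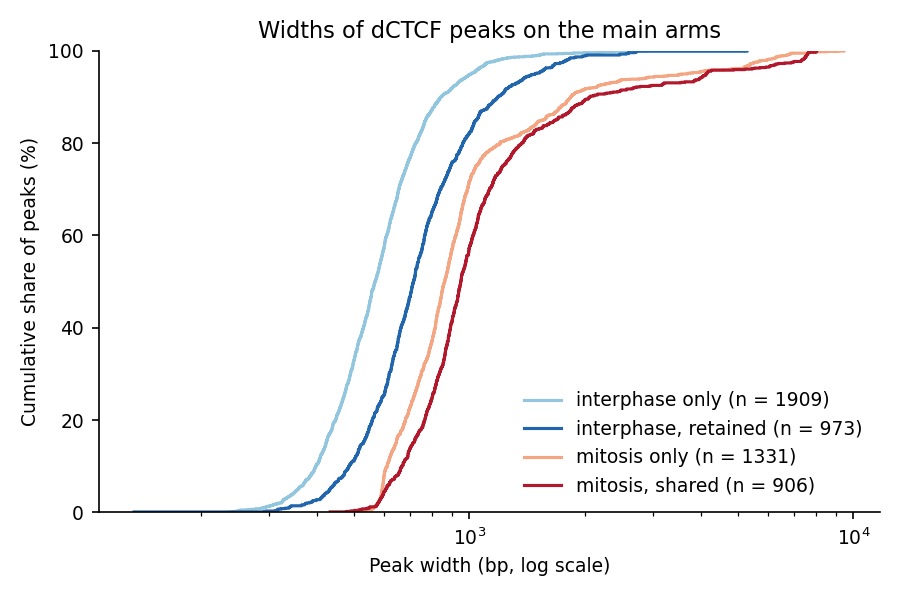
Cumulative share of dCTCF peaks on the main arms (percent, vertical axis) against peak width (bp, log scale, horizontal axis) for interphase peaks retained or not and mitotic peaks shared or not. The curves run from left to right in the order of their medians, 568, 715, 862 and 950 bp, and both mitotic curves have a tail of regions wider than 2000 bp.

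In the mitotic list shared peaks had a higher median score (156.83) than mitosis-only peaks (86.6). The interphase list went the other way at the median, with 140.13 for retained peaks and 263.79 for those called in interphase alone, but the retained peaks also had the higher upper quartile, 2838.47 against 1158.66. Retained interphase sites were therefore a mixture of weak and very strong peaks.

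Wide interphase peaks were retained more often than narrow ones within each quintile of the score distribution. Over all scores, retention was 14.9% (12.5 to 17.6%) of the narrowest width quartile, up to 498 bp, and 56.5% (52.82 to 60.05%) of the widest, above 758 bp. Among the weakest quintile of peaks, with scores up to 72.0, it was 25.1% of the narrowest 291 and 60.7% of the widest 56, a difference of 35.6 percentage points (21.5 to 48.2). In the fourth quintile it was 1 of 50 and 22.9% of 131. In the strongest quintile, with scores above 2054, it was 3 of 11 and 64.6% of 322. A wide peak meets another peak more readily by geometry alone, which sets part of any such difference.

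The midpoints of retained dCTCF sites lay farther apart between the phases than those of BEAF and CP190. A pair was defined as 1 interphase and 1 mitotic peak that overlapped each other and no further peak of either list, which held for 839 of the 973 retained peaks. Since pairs are chosen by overlap, a shift cannot exceed the mean of the 2 widths, a bound that is wider for dCTCF, and no level for overlap by chance was computed. The midpoints of a dCTCF pair lay a median of 90.5 bp apart (81.0 to 97.5), or 11.9% of the interphase width. They were within 50 bp in 31.8% of pairs, within 100 bp in 54.4% (51.0 to 57.7%), within 200 bp in 77.9% and within 500 bp in 94.9%. In 96.4% of pairs the mitotic peak held the interphase midpoint. By genome coordinate the shift had no side: 424 mitotic midpoints lay at higher and 415 at lower coordinates, and the median signed shift was 4 bp. A side relative to a gene would not show in these counts.

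For BEAF, with 2392 of 5681 interphase peaks retained (42.1%) and 2411 of 2432 mitotic peaks shared (99.1%), the median shift was 43.5 bp (41.0 to 45.0) over 2211 pairs. For CP190, with 3277 of 10431 retained (31.4%) and 3316 of 3759 shared (88.2%), it was 57.0 bp (54.5 to 59.5) over 3052 pairs. The share of pairs within 100 bp was 80.7% for BEAF and 69.9% for CP190. The dCTCF share was lower than the BEAF share by 26.3 percentage points (22.6 to 30.1) and lower than the CP190 share by 15.5 points (11.8 to 19.3). The 3 comparisons use different antibodies and 1 library each.

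The direction of the width change also differed between the proteins. In dCTCF pairs the mitotic peak was the wider in 79.5% (76.6 to 82.1%), with a median ratio of mitotic to interphase width of 1.31 (1.27 to 1.38). In 462 pairs (55.1%, 51.7 to 58.4%) it enclosed the whole interphase peak. It reached beyond the interphase peak by a median of 117 bp at the lower and 124 bp at the higher coordinate. These medians are pooled over pairs by genome coordinate and do not show whether single pairs widened evenly. BEAF and CP190 pairs had ratios of 0.921 and 0.766, and the mitotic peak enclosed the interphase peak in 19.9% and 8.42% of them. The excess of dCTCF was 35.2 points (31.4 to 38.9) over BEAF and 46.6 points (43.1 to 50.1) over CP190.

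The width ratio differed with the interphase score, and the shift did so less firmly. In the strongest quintile the median shift was 60 bp (54.0 to 74.0) over 319 pairs, 70.2% of pairs were within 100 bp, and the width ratio was 1.06 (1.03 to 1.10). In the third quintile the shift was 177.25 bp (131.5 to 209) over 98 pairs, with 30.6% within 100 bp, a share 39.6 points (28.6 to 49.1) below that of the strongest quintile. In the weakest quintile it was 91.5 bp (75 to 119) over 185 pairs and the width ratio was 1.79 (1.72 to 1.90). With a reciprocal overlap of 50% the shifts of the weakest and strongest quintiles were 67.5 bp (55 to 86) and 58.5 bp (50 to 71.5), with overlapping intervals, and the intervals also overlapped with 400 bp windows, with mitotic peaks up to 758 bp and without X and 4. Strong sites had nearly the same width in both phases. The mitotic partners had a median width of 976 bp in the weakest and 881 bp in the strongest quintile. All interphase peaks of these quintiles had medians of 497 and 776 bp, and the ratio is divided by the interphase width, which sets part of its difference. By quintile of the mitotic score the ratio lay between 1.30 and 1.37. Across the 839 pairs the interphase and mitotic scores had a Spearman correlation of 0.37, given as a description over sites that share 2 libraries. The same value was 0.85 for BEAF and 0.42 for CP190.

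**Figure D2:**
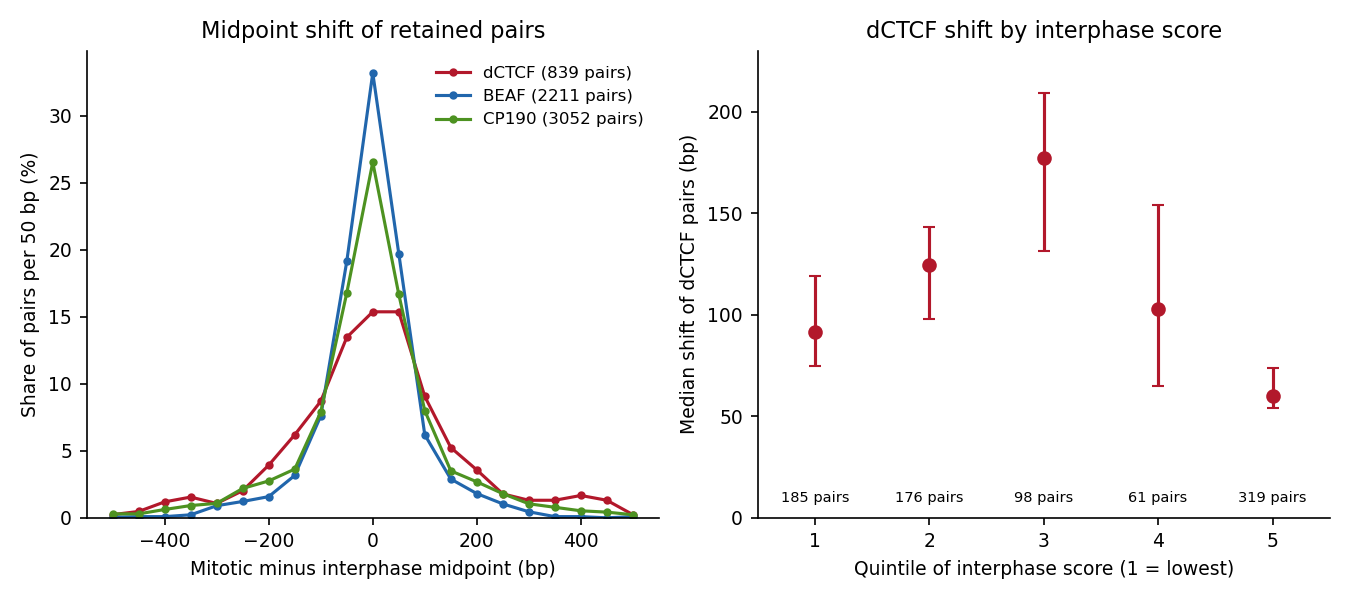
Left, share of pairs per 50 bp (percent) against the mitotic minus the interphase midpoint (bp) for dCTCF, BEAF and CP190. Right, median shift of dCTCF pairs (bp) by quintile of the interphase score, with bars for 95% order-statistic intervals: dCTCF is the flattest of the 3 curves, and its shift is smallest at 60 bp in the strongest quintile and largest at 177.25 bp in the third.

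Single sites show the range. On 3L a peak of 772 bp at 711804 to 712575, with an interphase score of 3100, had a mitotic peak at 711698 to 712676 whose midpoint was 2.5 bp away, and BEAF and CP190 were called there in both phases. On X the pair at 12247440 to 12247998 and 12247471 to 12247972 was also 2.5 bp apart and had no call of any other protein. These are sites that kept their centre with and without partner proteins. The largest shift among pairs scoring at least 200 in both lists was on X, where the mitotic peak at 5418222 to 5423095, of 4874 bp, was centred 1366 bp from the interphase peak at 5418354 to 5420231.

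The pair with the highest mitotic score on each large arm, with ties taken by position, lay at a strong interphase site. On 2R the mitotic peak at 15884581 to 15885682 had a score of 3100 and a shift of 5.5 bp, with CP190 called in both phases and no BEAF. On 3R the peak at 25541552 to 25543458 had a score of 3100 and a shift of 15.5 bp. On 2L, 3L and X the shifts were 156.5, 50 and 160 bp, and all 5 interphase peaks had a score of 3100, where many peaks are tied. CP190 was called in both phases at each of these 5 sites. This was common among strong sites. Of the 328 retained peaks in the strongest interphase quintile, 95.7% had an interphase and 76.5% a mitotic CP190 midpoint within 1000 bp, a measure other than overlap. The 249 interphase-only peaks of that quintile had similar shares, 98.4% and 72.7%, so these calls did not set retained strong sites apart.

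Mitotic peaks also joined neighbouring interphase peaks. Of the shared mitotic peaks 56 covered more than 1 interphase peak, together 129 of them, whereas only 6 interphase peaks were overlapped by 2 mitotic peaks. The 4 mitotic peaks that covered 4 interphase peaks each were alike. They lay at 2R 3149493 to 3157147, 3L 7786698 to 7794188, X 9692439 to 9700023 and 2L 12067077 to 12074636, with widths of 7655, 7491, 7585 and 7560 bp and mitotic scores of 2475.3, 2172.11, 1612.06 and 1422.97. Their interphase dCTCF peaks were weak, with scores between 50.64 and 150.12. Each region had interphase BEAF and no call of CP190 in either phase, and none had mitotic BEAF or Su(Hw). The regions thus resembled each other in width, partner calls and weak interphase score although they lay on 4 different arms. Choosing peaks that cover the most interphase peaks favours wide regions, which sets part of the likeness in width. Over all 906 shared mitotic peaks, 85.4% overlapped an interphase CP190 peak and 71.0% an interphase BEAF peak.

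The 4 pairs with the largest width ratios, a measure that favours narrow interphase peaks, had interphase scores between 56.94 and 140.13. At 2L 21521659 to 21525645 the mitotic peak had a score of 544.26 and was 10.3 times as wide as the interphase peak, which had a score of 61.55. On X the peak at 18648117 to 18652168 was 8.02 times as wide as its interphase counterpart, with scores of 826.51 in mitosis and 56.94 in interphase. Both pairs with the smallest ratios had an interphase score of 3100. At X 4811986 to 4813633 the mitotic peak was 0.421 times as wide as the interphase peak, with a mitotic score of 96.17.

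The full dCTCF lists had similar shares of short intervals, and the shorter mitotic list had more long ones. The median distance between the midpoints of consecutive peaks was 25283 bp (23916 to 26913) in interphase and 28073.5 bp (25591.5 to 31195.5) in mitosis, intervals that overlap. Intervals under 5000 bp made up 17.6% in interphase and 19.3% in mitosis, and those under 10000 bp 28.1% and 29.0%. Intervals longer than 100 kb made up 10.6% (9.56 to 11.8%) and 17.6% (16.0 to 19.2%). The interphase list is longer, and its 2237 highest scoring peaks had a median spacing of 34123 bp (32191.5 to 36696.5). Against these, mitotic intervals under 10000 bp were more frequent, at 29.0% and 21.7%, a difference of 7.31 points (4.76 to 9.84). For intervals under 5000 bp the shares were 19.3% and 13.0%. For intervals over 100 kb they were 17.6% and 16.3%, with a difference of 1.30 points whose interval ran from -0.901 to 3.50. The excess of short mitotic intervals thus appeared against the highest scoring interphase peaks and not in the full lists. The interphase peaks left out have the lowest scores, and interphase peaks with a neighbour under 2000 bp away had a low median score, 130.535 against 216.35 for the list. Restricted to scores of at least 100, the median spacing was 40025 bp in interphase and 68652.5 bp in mitosis. This cut removed 32.9% of interphase and 47.8% of mitotic peaks, which lengthens the mitotic spacing more. Over all sequences the mitotic value was 8823.25 bp. The 973 retained peaks alone had a median spacing of 72773.5 bp (64008 to 82342.5). The 1909 interphase-only peaks had one of 39383 bp (37320.5 to 42205.5). Fewer peaks on the same arms lie farther apart by construction, so no difference is read from these 2 values.

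**Figure D3:**
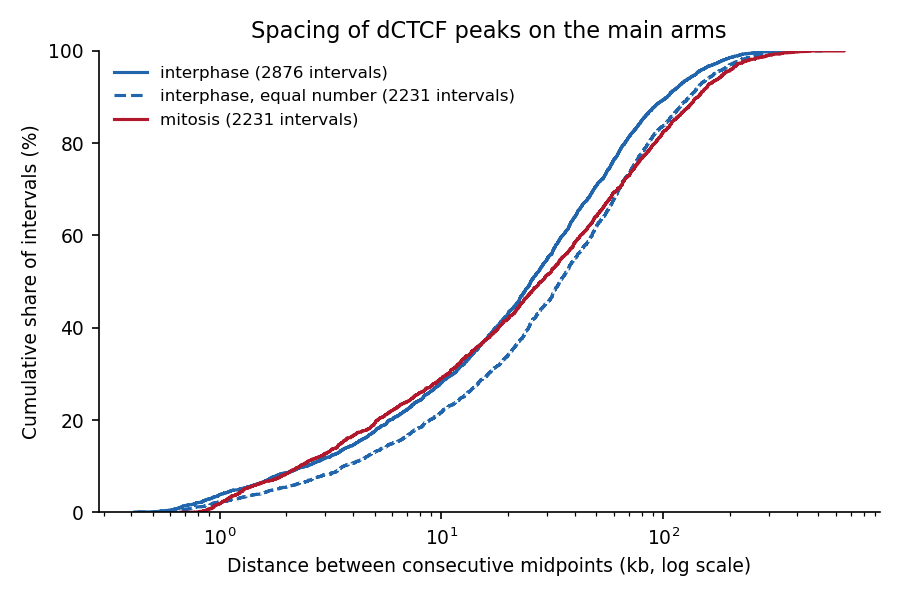
Cumulative share of intervals (percent) against the distance between consecutive dCTCF midpoints (kb, log scale) in interphase, in mitosis and for the 2237 highest scoring interphase peaks. Below 10 kb the mitotic curve lies above that of the equal number of interphase peaks, at 29.0% against 21.7%.

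The 3 longest intervals of each phase lay in different places. In interphase the longest was 443316 bp between midpoints, on 2R between a peak that ended at 207805 and one that began at 650580. In mitosis it was 654780 bp, on 2L between 8601866 and 9252556. The next were 459302 bp on 3L between 23384045 and 23841996, and 448718 bp on 3R between 15022622 and 15470697. None of the 3 longest intervals of one phase was among the 3 longest of the other, out of 2876 intervals in interphase and 2231 in mitosis. An interval recurs only where both end peaks have a counterpart and no peak lies between. No difference between the phases is therefore read from these few intervals.

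Close neighbours tended to share their fate. Interphase peaks whose nearest interphase peak lay under 2000 bp away were retained in 68.5% of 238 cases when that neighbour was retained and in 23.3% of 318 when it was not. In many of these cases 1 mitotic peak covered both. With those left out, the shares were 38.0% (29.9 to 46.9%) of 121 and 23.3% (19.0 to 28.2%), a difference of 14.7 points (5.21 to 24.6). At 2000 to 10000 bp they were 37.7% and 29.7%, and at 10000 to 50000 bp 33.7% and 29.5%, where the difference of 4.16 points had an interval from -1.30 to 9.77. Peaks with a retained neighbour also had lower scores at the shortest distance, with medians of 132.76 and 273.395, and the part of the score in these differences was not tested.

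The peaks were spread over all arms. Interphase density on the large arms lay between 21.7 peaks per Mb on 2L and 26.1 on X, and mitotic density between 18.2 on X and 19.4 on 2R. Chromosome 4 had 26 interphase peaks, of which 1 was retained, and 12 mitotic peaks. When each large arm was cut into 5 segments of equal length, retention ran from 23.6% (15.3 to 34.6%) of 72 peaks in the fourth segment of 2R to 50.4% (41.9 to 58.8%) of 131 in the last segment of 2L. The last segment of X, at 41.4% (33.3 to 49.9%), was next. The last segment of 2L held a run of interphase midpoints at nearly even intervals, such as 5001, 5110.5, 5027.5, 5085 and 5043 bp. Its share and interval count such peaks as separate sites, which was not tested. On these 5 arms the mitotic shared share lay between 38.3% on 3R and 43.6% on X, within overlapping intervals.

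Mitosis-only dCTCF peaks were seldom close to an interphase dCTCF peak. The 1331 peaks lay a median of 12419 bp (11175 to 13528) from the nearest one, edge to edge, with quartiles of 4416.5 and 27488.5 bp. Only 6.01% (4.86 to 7.42%) were within 500 bp and 7.96% (6.63 to 9.54%) within 1000 bp, while 27.2% were within 5000 bp and 64.5% within 20000 bp. For comparison, 2.32% of the main-arm span outside interphase peaks lay within 500 bp of one, 4.53% within 1000 bp, 19.9% within 5000 bp and 57.1% within 20000 bp. By this measure the mitosis-only peaks were somewhat closer to interphase peaks than the span as a whole, and most were still kilobases away. Peaks were measured from their edges and the span base by base, so the width of a peak brings it nearer by geometry alone. The part of width in this difference was not tested. The distance of an interphase peak to the next interphase peak had a median of 10999.5 bp (9951 to 11707), so mitosis-only peaks were not closer to interphase peaks than these were to each other.

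**Figure D4:**
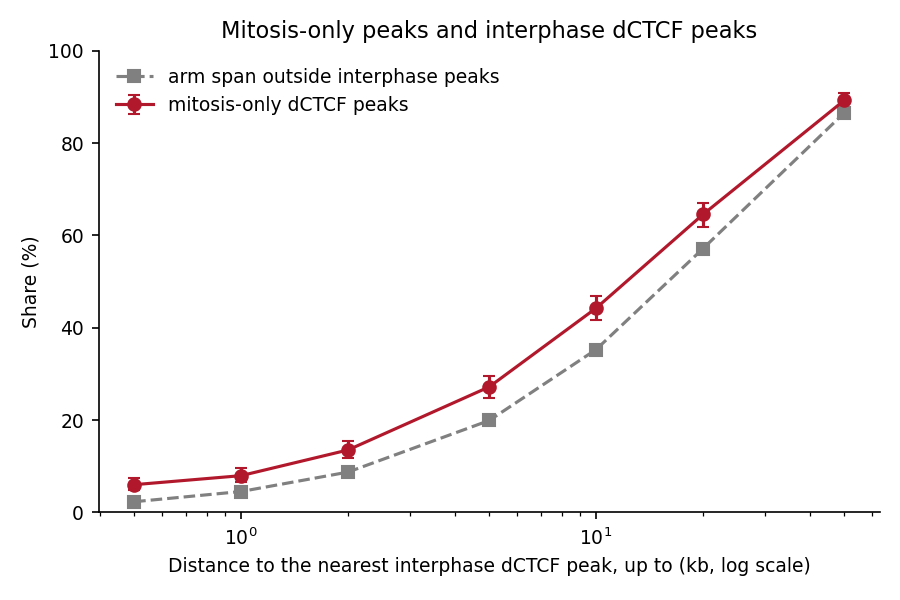
Share (percent) of the 1331 mitosis-only dCTCF peaks within a given distance of the nearest interphase dCTCF peak (kb, log scale), with bars for 95% Wilson intervals, and share of the main-arm span outside interphase peaks within the same distance. The peaks lie above the span at every distance shown, at 6.01% against 2.32% within 500 bp and 64.5% against 57.1% within 20000 bp. Peaks are measured from their edges and the span base by base, which sets part of the difference.

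The strongest mitosis-only peaks were the most distant. The median distance was 19820 bp (17585 to 23294) for the 114 peaks in the highest quintile of mitotic scores and between 10068 and 12826 bp in the other quintiles. With scores of at least 100 in both lists the median over all mitosis-only peaks was 20157.5 bp, where fewer interphase peaks remain to be near. These 114 were also broad, with a median width of 2390.5 bp (1873 to 3043) against 1134.5 bp (1074 to 1220) for the 334 shared peaks of the same quintile. In the other 4 quintiles the medians lay between 749 and 987.5 bp for mitosis-only peaks and between 802 and 939 bp for shared peaks. The intervals of the 2 classes overlapped in each of these 4 quintiles and did not overlap in the highest. The peaks farthest from any interphase dCTCF site lay at 2L 10303239 to 10303977, at a distance of 154868 bp, and 2L 10313863 to 10314467, at 144378 bp. The first overlapped interphase CP190 and BEAF peaks with scores of 157.88 and 105.48. The second overlapped BEAF in both phases, with a score of 1658.06 in interphase. The highest scoring peak within 1000 bp of an interphase site was at 3R 6022467 to 6028734, a region of 6268 bp with a score of 1209.11, which ended 413 bp before an interphase peak with a score of 2280.61. Beyond 20000 bp the highest scores were 1515.09 at 3L 17723873 to 17731484, a region of 7612 bp at 85389 bp from the nearest interphase dCTCF peak, and 1476.36 at 3R 2335588 to 2340962, of 5375 bp at 59652 bp. Both overlapped interphase CP190 and mitotic Su(Hw), and the second also mitotic CP190. Of the 4 highest scoring, the peak at 2L 20891665 to 20896854 also overlapped both proteins, and that at 2R 6509743 to 6515367 overlapped neither. Over all 1331 mitosis-only peaks 63.2% overlapped an interphase CP190 peak. By midpoints within 1000 bp, a measure other than overlap, 5.26% had mitotic Su(Hw), and 22.8% of the 114 in the highest quintile. Regions this wide meet any list more readily, and the part of width was not tested.

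For BEAF 21 mitosis-only peaks were found and for CP190 443. The CP190 peaks lay a median of 4156 bp (3525 to 4859) from an interphase CP190 peak, and 24.4% were within 1000 bp. The interphase CP190 list holds 10431 peaks and that of dCTCF 2882, so shorter distances follow from its density and the values are not compared further. In the reverse direction the 1909 dCTCF peaks called in interphase alone lay a median of 19327 bp (18205 to 21191) from the nearest mitotic dCTCF peak, and 5.66% were within 1000 bp.

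Fewer mitotic than interphase dCTCF peaks were centred on interphase BEAF peaks, and more lay beside them. This was looked for after the distances above had been seen. Within 100 bp of the nearest interphase BEAF midpoint were 22.5% (21.0 to 24.0%) of all interphase dCTCF midpoints and 8.14% (7.07 to 9.34%) of all mitotic ones, a difference of -14.3 points (-16.2 to -12.4). At 300 to 400 bp the order turned, with 4.79% (4.07 to 5.63%) in interphase and 14.6% (13.2 to 16.1%) in mitosis. The interphase share was thus highest at the centre, and the mitotic share in the bin from 300 to 400 bp.

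Mitosis-only peaks had the fewest centres there, at 3.98% (3.06 to 5.17%) within 100 bp and 15.8% (13.9 to 17.8%) at 300 to 400 bp. Their median distance to a BEAF midpoint was 519.5 bp (490.5 to 550.5) and to a CP190 midpoint 509 bp (463 to 549). By genome coordinate the offset had no preferred side, with 411 of 854 peaks within 1000 bp at the higher coordinate. Peaks were not oriented by genes, so a side relative to a gene would not show in this count. A low share at the centre is set in part by the rule, since a mitotic peak over a site where dCTCF and BEAF coincided in interphase counts as shared. Among the 906 shared mitotic peaks 14.2% lay within 100 bp and 12.9% at 300 to 400 bp, so the highest share away from the centre came from the mitosis-only peaks. Of mitotic CP190 peaks 30.7% lay within 100 bp of an interphase BEAF midpoint and 3.09% at 300 to 400 bp. Their median distance was 599.5 bp, against 467 bp for all mitotic dCTCF peaks, so only part of them were centred. Of mitotic BEAF peaks 74.9% and 2.14% lay at these distances, a comparison of BEAF with itself.

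**Figure D5:**
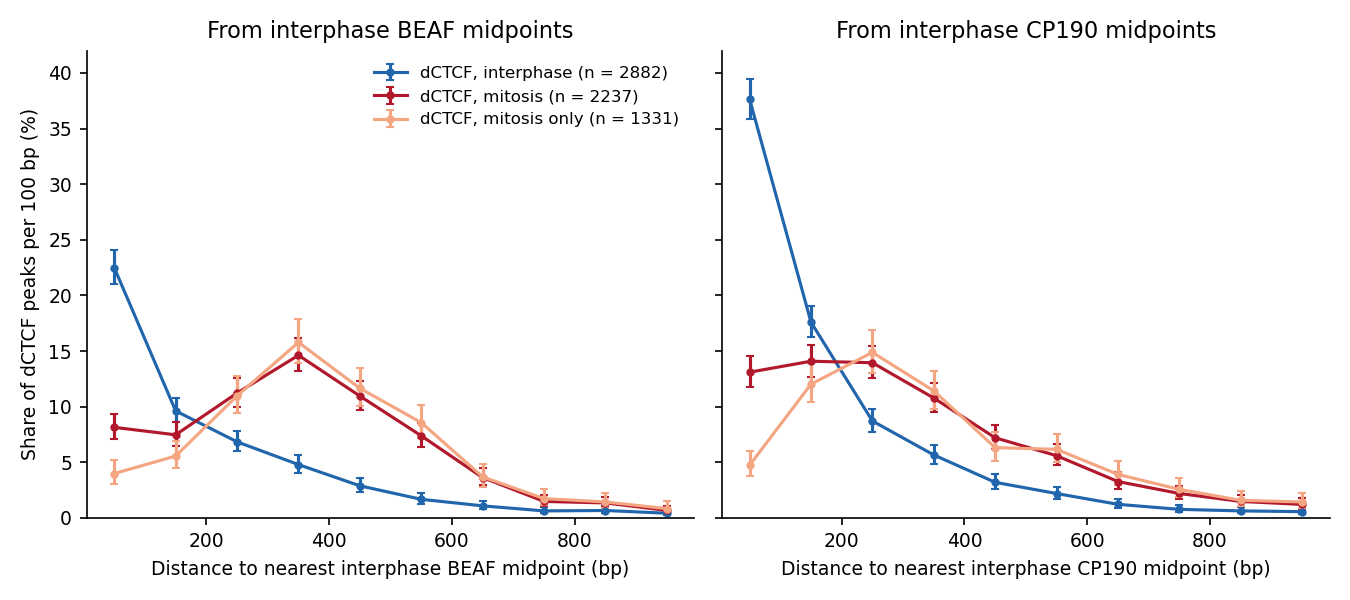
Share of dCTCF peaks per 100 bp (percent) against the distance of their midpoint to the nearest interphase BEAF midpoint (left) or CP190 midpoint (right, bp), for all interphase, all mitotic and mitosis-only dCTCF peaks, with bars for 95% Wilson intervals. The interphase curves fall from the centre, at 22.5% for BEAF and 37.6% for CP190, while the mitotic curve for BEAF has its highest bin, 14.6%, at 300 to 400 bp.

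Around CP190 the mitotic share at the centre was also lower than the interphase share, but the mitotic peaks had no maximum at 300 to 400 bp. Their highest share was not at the centre either. Of the mitotic peaks 608 lay within 200 bp of a CP190 midpoint, and 293 of these within 100 bp. Within 100 bp of an interphase CP190 midpoint lay 37.6% (35.9 to 39.4%) of interphase and 13.1% (11.8 to 14.6%) of mitotic dCTCF peaks, a difference of -24.5 points (-26.8 to -22.3). At 300 to 400 bp the shares were 5.66% and 10.8%. Among mitosis-only peaks 4.73% lay within 100 bp of a CP190 midpoint, 16.8% within 200 bp and 11.4% at 300 to 400 bp. Their share at the centre was thus low for CP190 as for BEAF. Mitotic peaks are wide, so many still reached the centre: 42.1% of mitosis-only peaks held the nearest BEAF midpoint and 62.8% overlapped an interphase BEAF peak.

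Weak retained interphase peaks were less often centred on BEAF and CP190 than weak interphase-only peaks. In the weakest quintile of interphase scores, 17.4% of the 241 retained peaks and 27.7% of the 336 interphase-only peaks lay within 100 bp of a BEAF midpoint, a difference of -10.3 points (-16.8 to -3.30). At 200 to 500 bp the shares were 44.0% and 22.0%, a difference of 22.0 points (14.2 to 29.5). For CP190 the shares within 100 bp were 12.4% and 35.7%, and at 200 to 500 bp 29.9% and 22.9%, where the difference of 6.96 points had an interval from -0.276 to 14.3. In the strongest quintile the order at the BEAF centre was reversed, with 33.5% of the 328 retained and 20.9% of the 249 interphase-only peaks within 100 bp, a difference of 12.7 points (5.31 to 19.6), and 5.79% and 5.62% at 200 to 500 bp. At the CP190 centre the strong peaks had shares of 59.8% and 53.0%, with a difference of 6.74 points whose interval ran from -1.40 to 14.8. Retained dCTCF sites thus differed in position with their score. Where the mitotic peaks lie decides which weak interphase peaks count as retained, so the offsets of the weakest quintile and of the mitotic peaks are not independent.

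At sites where both dCTCF and BEAF had an interphase peak under 1 mitotic dCTCF peak, the mitotic midpoint was usually nearer to dCTCF. Of 643 such mitotic peaks 432 (67.2%, 63.5 to 70.7%) were nearer to the dCTCF midpoint and 210 nearer to the BEAF midpoint, with 1 as far from both. Over all shared peaks the nearest of the 3 interphase midpoints was that of dCTCF in 62.4% (59.2 to 65.5%), of CP190 in 19.9% and of BEAF in 17.8%. For mitosis-only peaks it was CP190 in 57.0% (54.3 to 59.7%), BEAF in 39.8% and dCTCF in 3.16%. The classes themselves fix most of this, since a mitosis-only peak overlaps no interphase dCTCF peak and a shared one does. The CP190 and BEAF lists are also longer than the dCTCF list, and the part of list length was not tested.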

How the data were processed

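The members and the lists compared were chosen with earlier results of these data known. Sonicated chromatin of 200 to 1000 bp was precipitated and libraries of 200 to 300 bp were selected, per the labels' protocols. Bowtie 0.12.5 is named for the reads in the submitters' processing notes. What the authors deposited is 1 peak list per library with a score per peak, in which peak names begin with MACS. The sources used here do not give the peak caller's version or threshold, any control library, the genome build or the meaning of the score.

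Starts were raised by 1 to give 1-based positions. Width counts both end bases, the midpoint is the mean of start and end, and spacing and shift are distances of midpoints. Gaps are counts of bases between edges. Score quintiles were cut within each main-arm list. The highest peak end of any list stood for the length of an arm. Groups came from the sample titles, 1 library each, so no test was possible.

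Named sites follow fixed rules: among pairs scoring at least 200, the 3 smallest and 3 largest shifts; the 4 largest and 2 smallest width ratios; the 4 mitotic peaks over most interphase peaks; the 5 farthest mitosis-only peaks; the 4 highest scoring within 1000 bp and beyond 20000 bp; the 3 longest intervals per phase; and the highest scoring pair per large arm. Examples are printed. Alternatives were overlap of 50% of both peaks, scores from 100 up, equal list lengths, 400 bp windows, all sequences, narrower mitotic peaks and leaving out X and 4.

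Python 3.11.15, NumPy 2.4.6, SciPy 1.17.1 and matplotlib 3.10.9 were used. The code was tested on simulated intervals, and its 6 overlap counts equalled those of bedtools 2.31.1.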

Additional observations from a re-analysis of the deposited data

How the results depend on the processing

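Of 58 recomputed values of the main quantities, 23 stayed within the interval of the reported value. Requiring a reciprocal overlap of 50% gave a retained share of 23.7%, a shared mitotic share of 30.5%, a shift of 74.75 bp and a distance of 9155 bp for mitotic peaks failing that rule, some of which overlap (distance 0). With a score of at least 100 these were 23.2%, 38.1%, 75 bp and 20157.5 bp, with widths of 654 bp (interphase) and 1013 bp (mitosis) and spacings of 40025 and 68652.5 bp. Equal numbers of the highest scoring peaks gave 31.3% and 30.7% for the shares, an interphase width of 642 bp and spacing of 34123 bp, and a distance of 18115 bp. Windows of 400 bp gave shares of 28.3% and 36.3%. All sequences gave shares of 45.1% and 28.0%, widths of 581 and 871 bp and a mitotic spacing of 8823.25 bp. The mitotic spacing, longer than the interphase one as reported, was shorter with equal numbers and with all sequences. Restricting mitotic peaks to 758 bp, the 75th percentile of interphase widths, left 591 of them, with shares of 6.07% and 29.4%, a mitotic width of 653 bp, a mitotic spacing of 133958 bp and a distance of 16529 bp. Fewer mitotic peaks lower the retained share by construction. Taking every retained peak with its nearest mitotic midpoint gave a shift of 103.5 bp. Leaving out X and 4 kept every value within its interval.

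The dCTCF shift stayed between 74.75 and 103.5 bp in these settings, above the CP190 shift (47.0 to 69.5 bp) and the BEAF shift (41.0 to 44.5 bp) in the settings run for each. Over 7 settings the shift was 67.5 to 127 bp in the weakest and 58 to 66 bp in the strongest interphase score quintile. Around BEAF midpoints, settings chosen after seeing the data gave shares of mitosis-only peaks of 1.92% within 100 bp and 13.4% at 300 to 400 bp for mitotic peaks up to 758 bp, 11.8% at 300 to 400 bp for scores of at least 100, and 1.73% and 9.02% around mitotic BEAF peaks. The share at 300 to 400 bp exceeded that within 100 bp in each. The cause of the changes was not tested beyond what list length sets. No paired analysis was possible because each group was 1 library. Leaving out replicates was likewise not possible. Depth is unknown and limits every statement on a missing peak.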
